A study of Mus musculus with 24 samples.

Results

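The sarcomere and Z-disc genes described here are 31 genes of the contractile apparatus of striated muscle, listed by symbol: 6 of the thin filament, 8 of the thick filament and M-band, 9 of the Z-disc, 6 of the desmin, filamin and costamere network, and 2 muscle ubiquitin ligases. A probe set annotated to 1 symbol was found for 30 of them among the 18193 genes measured, and Xirp2 had none in the annotation used. Each gene is given by the probe set with its highest mean over all 24 arrays. All 30 exceeded a log2 value of 4 in at least 3 of the 12 heart arrays, as did 9962 genes in all, and 28 did so in lung, among 11600 genes.

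Affymetrix arrays measured RNA of left ventricle and lung from CD-1 mice aged 20 weeks, in 8 groups of 3 arrays. The dnCREB groups carried a dominant negative CREB1 transgene under a cardiomyocyte-specific myosin heavy chain promoter, a model of cardiac failure, and the WT groups were wild type. Mice received particulate matter (PM) at 20 mg/kg, with particles of 1.9 µm and tissue taken after 36 h, or phosphate-buffered saline (PBS). The groups per tissue were dnCREB-PM, WT-PM, dnCREB-PBS and WT-PBS. The series text gives 3 animals a group, and nothing states whether heart and lung of 1 replicate number share an animal. RNA of the sex chromosomes, given below, differed between heart and lung arrays in every group. The p-values measure the spread between these arrays.

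The sarcomere is the contractile unit of heart muscle. Thin filaments of actin, tropomyosin and troponin slide along thick filaments of myosin, and the giant protein titin spans from the Z-disc to the M-band. The Z-disc crosslinks thin filaments through alpha-actinin and carries LIM, PDZ and calsarcin proteins that take part in stretch signalling, while desmin filaments tie Z-discs to each other and to the cell membrane. Mutations in many of these genes cause inherited cardiomyopathies. CREB1 is a transcription factor activated by cAMP signalling, which binds the cAMP response element.

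Promoter windows of 250 bases before the transcription start, from RefSeq (GRCm38.p6), were found for 25 of the 31 genes, 36 windows in all. They were searched on both strands for the cAMP response element TGACGTCA, for its core TGACG, and for the CArG box and the MEF2 box, the sites of serum response factor and of MEF2 proteins that drive muscle genes. The core TGACG also lies inside TGACGTCA, so the 2 searches overlap. Each is a match of letters, not a known binding site. The full element was in 0 of 36 windows and in 1.55% of all 32851 promoters. The core was in 16.7% of the windows (promoters of Csrp3, Flnc, Lmod2, Nebl and Tpm1) and in 17.8% of all. A CArG box was in 16.7% of the windows (Actc1, Ldb3, Myl3, Myom1 and Nebl) and in 1.47% of all, and a MEF2 box in 13.9% (Mybpc3, Myoz2, Synpo2l, Ttn and Xirp2) and in 0.508% of all. That MEF2 box starts with CTA and ends with TAG. A looser form, which also allows TTA at the start or TAA at the end, was in 19.4% of the windows, with Mylk4 added, and in 2.92% of all. The windows of Mylk4 and Synpo2l are shown because these genes differed most between the genotypes, those of Myoz2 and Actc1 as a gene that was called and one that was not, each with a muscle motif close to its start. All 4 genes lie on the minus strand and are written 5′ to 3′ along the gene. Capitals mark a MEF2 box in Synpo2l, 109 bases before the start at its first base, and in Myoz2, 33 bases before, and a CArG box in Actc1, 47 bases before. The Synpo2l window is 1 of 2 listed for that gene. The Mylk4 window holds the looser MEF2 form, which is not capitalised.
Mylk4, chr13:32783965-32784214: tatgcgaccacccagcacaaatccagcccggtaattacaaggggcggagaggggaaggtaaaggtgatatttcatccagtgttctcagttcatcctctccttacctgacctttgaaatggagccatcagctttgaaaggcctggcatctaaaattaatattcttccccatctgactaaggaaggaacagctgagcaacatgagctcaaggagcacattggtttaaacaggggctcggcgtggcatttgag
Synpo2l, chr14:20668355-20668604: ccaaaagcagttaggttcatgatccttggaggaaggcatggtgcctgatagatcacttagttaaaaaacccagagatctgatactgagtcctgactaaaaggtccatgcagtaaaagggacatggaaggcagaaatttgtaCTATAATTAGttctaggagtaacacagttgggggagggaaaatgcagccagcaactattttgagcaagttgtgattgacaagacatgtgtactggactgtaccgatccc
Myoz2, chr3:123034988-123035237: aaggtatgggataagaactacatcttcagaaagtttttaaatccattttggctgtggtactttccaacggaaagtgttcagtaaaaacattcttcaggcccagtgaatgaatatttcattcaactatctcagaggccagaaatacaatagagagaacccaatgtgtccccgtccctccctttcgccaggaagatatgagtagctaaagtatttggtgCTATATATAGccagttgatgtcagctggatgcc
Actc1, chr2:114052876-114053125: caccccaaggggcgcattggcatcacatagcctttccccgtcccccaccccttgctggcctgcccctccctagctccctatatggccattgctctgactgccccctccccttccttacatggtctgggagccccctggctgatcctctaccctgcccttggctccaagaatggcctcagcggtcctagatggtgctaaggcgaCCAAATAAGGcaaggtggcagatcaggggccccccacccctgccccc

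2 facts about the arrays bear on the results. The labels call all mice male, but Xist, the RNA of the inactive X chromosome of females, was high in all 6 WT hearts, where the Y-linked Eif2s3y was low, and Eif2s3y was high in 5 of 6 dnCREB hearts. The heart labelled dnCREB-PM replicate 3 was the exception, with Xist at 13.71. Genotype and this class can be told apart in heart only through that 1 array, so most called results are also given with the class as a covariate, and some without this array. In lung, Xist was high in 6 arrays, Eif2s3y in 4 and neither in 2. Eif2s3y was high in all 3 WT-PBS lungs and WT-PM replicate 2. Xist was high in WT-PM replicates 1 and 3, dnCREB-PBS replicate 2 and all 3 dnCREB-PM lungs. The other 2 dnCREB-PBS lungs had neither. Lung comparisons of genotype and of PM thus also compared these classes in part. The WT-PBS hearts were Xist-high and the WT-PBS lungs Eif2s3y-high, so as labelled they do not come from the same animals. The classes did not match in the other groups either. All WT-PM hearts were Xist-high, but WT-PM lung replicate 2 was not. All dnCREB-PBS hearts and dnCREB-PM heart replicates 1 and 2 were Eif2s3y-high, but no dnCREB lung was. The transgene was checked with Creb1, whose probe set 1421582_a_at averaged log2 10.39 in dnCREB-PM against 2.65 in WT-PM hearts, and 10.45 in dnCREB-PBS against 2.94 in WT-PBS hearts. The probe set that represents Creb1 by its highest mean is another one and did not rise. By limma without dnCREB-PM replicate 3 it differed by -0.82 under PM and -0.36 under PBS, without a call (adjusted p = 0.20 and 0.51).

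In the left ventricle, most sarcomere genes differed little between dnCREB and WT hearts, and a few differed clearly. Under PBS, dnCREB against WT, 3 genes were higher (Synpo2l, Des and Flnc) and 2 lower (Mylk4 and Myoz2) at an adjusted p under 0.05 (limma, Benjamini-Hochberg over all genes tested). These 5 of 30 were 16.7%, where 18.8% of all genes tested were called. Under PM, 2 were higher (Synpo2l and Des) and 3 lower (Mylk4, Nebl and Tnni3), again 5 of 30, where 20.5% of all genes were called. Averaged over PM and PBS, 2 were higher and 7 lower, with Myl3, Tcap and Trim63 added, 9 of 30 where 35.9% of all genes were called. At an unadjusted p under 0.05 there were 7 of 30 under PM, 7 under PBS and 11 averaged, where 34% (PM), 33.1% (PBS) and 45.8% (averaged) of all genes passed. Taken over both directions, none of these shares of the sarcomere genes exceeded that of all genes. By direction, the averaged 2 of 30 higher and 7 of 30 lower stand beside 22.3% and 13.6% of all genes. The lower share thus lay above that of all genes and the higher share below it. Under PM, 11.4% of all genes were higher and 9.13% lower, and under PBS 13.2% and 5.6%. Their median log2 difference was -0.05 under PM and 0.04 under PBS, and that of all genes tested 0.02 and 0.09. A difference smaller than 0.5 log2 units was seen for 26 of 30 genes in each condition. Small differences were also common over all probe sets. The median size of the averaged difference was 0.27 at a heart mean under 12, 0.31 at 12 to 14 and 0.23 at 14 or more. With the Xist class as a covariate, Synpo2l alone stayed called in the 3 genotype comparisons, 1 higher and 0 lower in each, while 337 to 942 genes were called in all.

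**Figure D1:**
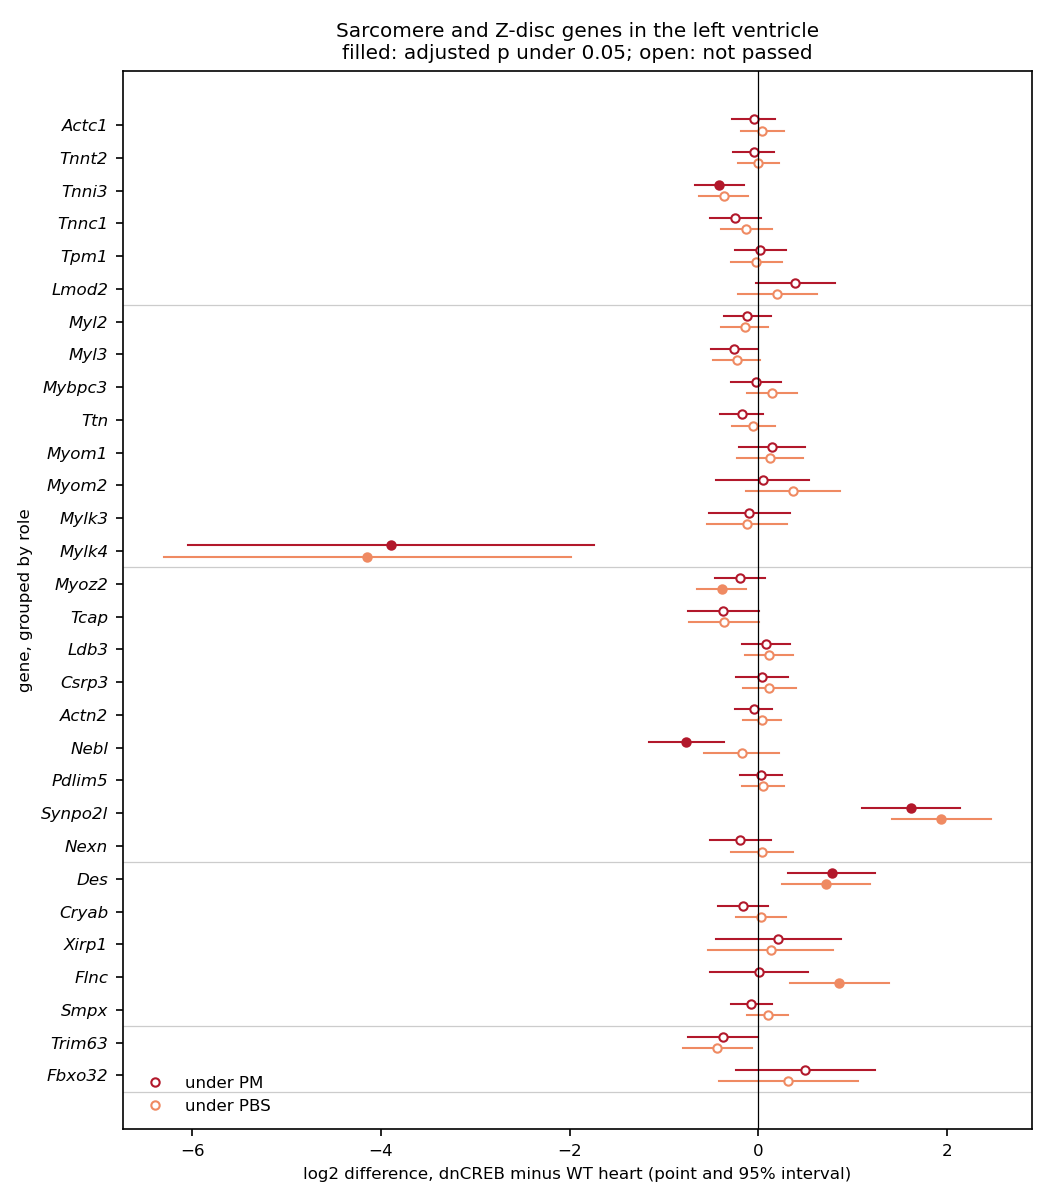
Log2 difference between dnCREB and WT hearts (x axis) for the 30 genes, grouped by role from thin filament at the top to ubiquitin ligases at the bottom, with 95% intervals from limma; darker points are under PM, lighter ones under PBS, and filled points passed the test. Most points lie within 0.5 of 0, with Mylk4 at -3.90 and -4.14 and Synpo2l at 1.62 and 1.94 far from the rest.

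Other cell types and the muscle cells themselves also differed between the genotypes in marker RNA. Of 13 measured cardiomyocyte markers that are not sarcomere genes (Ryr2, Corin, Hrc and others), 0 were higher and 5 lower in dnCREB hearts in each condition. The mean of their log2 values was 14.11 to 14.22 in dnCREB-PM and 14.47 to 14.65 in WT-PM hearts, and 14.04 to 14.19 in dnCREB-PBS and 14.51 to 14.74 in WT-PBS hearts. Of 9 fibroblast markers, 7 were higher in each condition, with list means of 12.20 to 13.62 in dnCREB-PM against 11.18 to 11.56 in WT-PM hearts and of 12.89 to 13.18 in dnCREB-PBS against 11.20 to 11.39 in WT-PBS hearts. Of 8 macrophage markers, 6 were higher under PM and 1 under PBS. Their list means were 10.21 to 10.53 in dnCREB-PM against 7.88 to 8.85 in WT-PM hearts. Under PBS they were 9.58 to 10.60 in dnCREB hearts, against 10.20, 8.44 and 8.77 in WT hearts, so WT-PBS replicate 1 lay within the dnCREB range. Beside these marker counts, 11.4% of all genes were higher and 9.13% lower under PM, and 13.2% and 5.6% under PBS. Without dnCREB-PM replicate 3, 2 cardiomyocyte markers were lower under PM and 4 under PBS. Given the Xist class as a covariate, 1 cardiomyocyte marker was lower under PM and 0 under PBS, 7 fibroblast markers were higher under PM and 6 under PBS, and 1 macrophage marker under PM and 0 under PBS. In bulk RNA, fewer muscle cells and less RNA per muscle cell cannot be told apart, and the part of these shifts in the differences of single genes was not tested.

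In the thin filament, only Tnni3, cardiac troponin I, the inhibitory subunit of troponin, was called. It gave log2 values of 15.48, 15.31 and 15.33 in dnCREB-PM hearts and 15.74, 15.87 and 15.74 in WT-PM hearts. Under PBS it gave 15.42, 15.46 and 15.22 in dnCREB and 15.57, 15.90 and 15.72 in WT. All 6 dnCREB hearts lay below all 6 WT hearts. The difference was -0.41 ± 0.12 (SE) under PM (1.33-fold lower, adjusted p = 0.031) and -0.37 ± 0.12 under PBS (adjusted p = 0.051), and averaged over both -0.39 (adjusted p = 0.0045). The call under PM did not hold without WT-PM replicate 1, 2 or 3 or dnCREB-PM replicate 2 or 3, with differences of -0.44 to -0.37 and adjusted p of 0.0582 to 0.0977. With the Xist class as a covariate the averaged difference was -0.44 (adjusted p = 0.16).

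The other 5 thin filament genes were not called by the probe sets that represent them. Tnnt2, cardiac troponin T, which anchors troponin to tropomyosin, gave 17.01, 16.82 and 16.96 in dnCREB-PM and 16.98, 17.03 and 16.93 in WT-PM hearts, and 17.03, 16.92 and 16.89 in dnCREB-PBS and 16.84, 17.05 and 16.95 in WT-PBS hearts. Its groups overlapped, with differences of -0.05 under PM (95% interval -0.27 to 0.17) and 0.00 under PBS (-0.22 to 0.22). Taken as the mean of its probe sets, Tnnt2 was lower on average by -0.61 (adjusted p = 0.034), and its probe set 1440424_at, given below, differed most. Actc1, cardiac actin, differed by -0.05 under PM (-0.27 to 0.17) and 0.04 under PBS (-0.18 to 0.27). Tpm1, alpha-tropomyosin, differed by 0.02 under PM and -0.02 under PBS. Tnnc1, the calcium-binding troponin C, lay lower in all dnCREB-PM than in all WT-PM hearts, at -0.25 (-0.52 to 0.03, adjusted p = 0.19). Lmod2, a leiomodin that lengthens thin filaments, differed by 0.39 under PM (-0.02 to 0.81) and 0.20 under PBS (-0.21 to 0.62).

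Among the thick filament and M-band genes, Mylk4 stood apart. It encodes a member of the myosin light chain kinase family that resembles Mylk3, the cardiac kinase that phosphorylates ventricular regulatory light chain. Mylk4 gave 5.71, 10.04 and 10.09 in dnCREB-PM hearts, against 12.77, 12.92 and 11.85 in WT-PM hearts. Under PBS it gave 7.72, 8.17 and 7.89 in dnCREB hearts, against 12.52, 12.47 and 11.22 in WT hearts. The dnCREB values lay below every WT value in both conditions, and spread most under PM, where replicate 1 lay more than 4 units below the other 2 arrays. The difference was -3.90 ± 0.97 under PM (14.9-fold lower, adjusted p = 0.019) and -4.14 ± 0.97 under PBS (17.7-fold lower, adjusted p = 0.015). It ended its call under PM without WT-PM replicate 1 or 2 (-3.77 and -3.69, adjusted p = 0.056 and 0.060), and under PBS without WT-PBS replicate 2 (-3.94, adjusted p = 0.0502). The Xist-high dnCREB-PM replicate 3, at 10.09, lay below all WT hearts. Without it the difference under PM was -4.63 (adjusted p = 0.018), and with the Xist class as a covariate the averaged difference of -4.02 became -2.17 (adjusted p = 0.36). Mylk3 itself differed by -0.10 under PM (-0.52 to 0.33) and -0.12 under PBS (-0.55 to 0.31).

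Myl3, the ventricular essential light chain of myosin, passed the test only when the conditions were averaged. It gave 16.09, 16.09 and 16.15 in dnCREB-PM and 16.35, 16.45 and 16.30 in WT-PM hearts, and 16.16, 16.16 and 15.88 in dnCREB-PBS and 16.18, 16.42 and 16.30 in WT-PBS hearts. The groups did not overlap in either condition, and the averaged difference was -0.24 ± 0.08 (1.18-fold lower, adjusted p = 0.033). That call did not hold without any 1 of 7 arrays (WT-PBS replicate 2 or 3, WT-PM replicate 1 or 2, dnCREB-PBS replicate 3, dnCREB-PM replicate 1 or 2), at -0.25 to -0.20 and adjusted p of 0.0508 to 0.0759, nor with the Xist class as a covariate (-0.20, adjusted p = 0.54). Taken as the mean of its probe sets, Myl3 was also called under PM (-0.37, adjusted p = 0.041). The other 2 Myl3 probe sets gave -0.38 (adjusted p = 0.011) and -0.41 (adjusted p = 0.0077) when averaged, in a fit of all 16693 probe sets above the filter. With the class as a covariate these 2 gave -0.28 and -0.35 without a call (adjusted p = 0.47 and 0.35).

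Titin, myomesins and myosin binding protein C were not called. Ttn gave 16.28, 16.06 and 16.25 in dnCREB-PM and 16.37, 16.39 and 16.35 in WT-PM hearts, and 16.39, 16.25 and 16.26 in dnCREB-PBS and 16.27, 16.49 and 16.31 in WT-PBS hearts. The groups did not overlap under PM but did under PBS, with differences of -0.18 (-0.40 to 0.05) and -0.05 (-0.28 to 0.17). Taken as the mean of its 6 probe sets, Ttn was lower by -0.49 under PM (adjusted p = 0.029) and -0.46 under PBS (adjusted p = 0.041). Mybpc3, which binds myosin in the A-band, differed by -0.03 under PM and 0.14 under PBS. Myom1 and Myom2, the M-band crosslinkers, differed by 0.14 and 0.04 under PM and by 0.12 and 0.37 under PBS, and Myl2, the ventricular regulatory light chain, by -0.12 and -0.14, all with intervals that include 0.

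At the Z-disc, Synpo2l was higher in dnCREB hearts and held its call under every alternative setting tried. Synpo2l encodes a synaptopodin-2-like protein of the Z-disc that binds alpha-actinin and filamin. It gave 13.44, 13.79 and 13.75 in dnCREB-PM hearts, against 12.16, 11.72 and 12.26 in WT-PM hearts. Under PBS it gave 13.84, 13.52 and 14.30 in dnCREB hearts, against 12.12, 12.16 and 11.57 in WT hearts. Each dnCREB heart lay above each WT heart, the Xist-high replicate 3 under PM at 13.75 included. The difference was 1.62 ± 0.24 under PM (3.07-fold, adjusted p = 0.0015) and 1.94 ± 0.24 under PBS (3.84-fold, adjusted p = 5.9e-04). It stayed between 1.40 and 1.73 under PM and between 1.61 and 2.12 under PBS over 23 other settings each, with a largest adjusted p of 0.038. Without dnCREB-PM replicate 3 it was 1.57 under PM (adjusted p = 0.0075). The other 2 probe sets of this gene above the filter were also higher, at 2.73 and 1.26 under PM and 2.74 and 1.81 under PBS, all called in the fit of all probe sets. Given the class as a covariate, the first kept its call in both conditions (2.65 and 2.62), and the second did not (1.23 and 1.76, adjusted p = 0.096 and 0.11).

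Nebl and Myoz2 were lower, each in 1 condition. Nebl encodes nebulette, the cardiac relative of nebulin that links actin to the Z-disc. It gave 12.82, 12.32 and 12.79 in dnCREB-PM hearts, against 13.53, 13.35 and 13.34 in WT-PM hearts, a difference of -0.76 ± 0.18 (1.7-fold lower, adjusted p = 0.014). Under PBS it gave 13.27, 12.85 and 13.09 in dnCREB and 12.96, 13.47 and 13.31 in WT hearts, which overlapped (-0.18, -0.57 to 0.22). The difference between these 2 differences was -0.59 (interaction, adjusted p = 0.98), so the condition was not shown to matter. Without the Xist-high array the difference under PM was -0.84 (adjusted p = 0.027), and with the class as a covariate -0.62 (adjusted p = 0.18). The mean of its probe sets gave -1.02 under PM without a call (adjusted p = 0.074). Its other 2 probe sets disagreed. By limma over all probe sets without the Xist-high array, 1451846_at differed by -3.37 under PM (adjusted p = 0.014) and 1439897_at by -0.09 (adjusted p = 0.88). With the class as a covariate these were 0.06 and 0.02, without a call (adjusted p = 0.99 for each).

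Myoz2 encodes calsarcin-1, which tethers the phosphatase calcineurin to the Z-disc. It gave 14.24, 13.97 and 14.03 in dnCREB-PBS hearts, against 14.40, 14.60 and 14.41 in WT-PBS hearts, a difference of -0.39 ± 0.12 (1.31-fold lower, adjusted p = 0.045). Under PM it gave 14.37, 14.19 and 14.07 in dnCREB and 14.32, 14.42 and 14.48 in WT hearts, which overlapped (-0.20, -0.46 to 0.07). The call under PBS was close to the threshold and did not hold without any 1 of 9 arrays (each of the 6 WT arrays, dnCREB-PBS replicate 2 or 3, dnCREB-PM replicate 2), at -0.43 to -0.32 and adjusted p of 0.0517 to 0.139. With the Xist class as a covariate it was -0.60 (adjusted p = 0.17). The averaged difference of -0.29 (adjusted p = 0.021) lost its call without WT-PBS replicate 2 (-0.26, adjusted p = 0.0502).

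Tcap, telethonin, the cap of titin at the Z-disc, passed the test only on average (-0.37 ± 0.12, 1.29-fold lower, adjusted p = 0.035), and that call did not hold without any 1 of 7 arrays (WT-PBS replicate 1 or 2, WT-PM replicate 1 or 3, dnCREB-PBS replicate 2, dnCREB-PM replicate 2 or 3), at -0.37 to -0.30 and adjusted p of 0.0639 to 0.0797, nor with the Xist class as a covariate (-0.58, adjusted p = 0.18). Actn2, alpha-actinin, the main crosslinker of the Z-disc, was not called, with all 12 hearts between 14.22 and 14.39 and differences of -0.05 under PM (-0.25 to 0.15) and 0.04 under PBS (-0.16 to 0.24). Csrp3, the muscle LIM protein, differed by 0.04 under PM (-0.24 to 0.32) and 0.12 under PBS (-0.16 to 0.40). Ldb3, also called ZASP or Cypher, differed by 0.08 and 0.11, and Nexn, the actin-binding nexilin, by -0.19 and 0.04, with intervals that include 0.

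**Figure D2:**
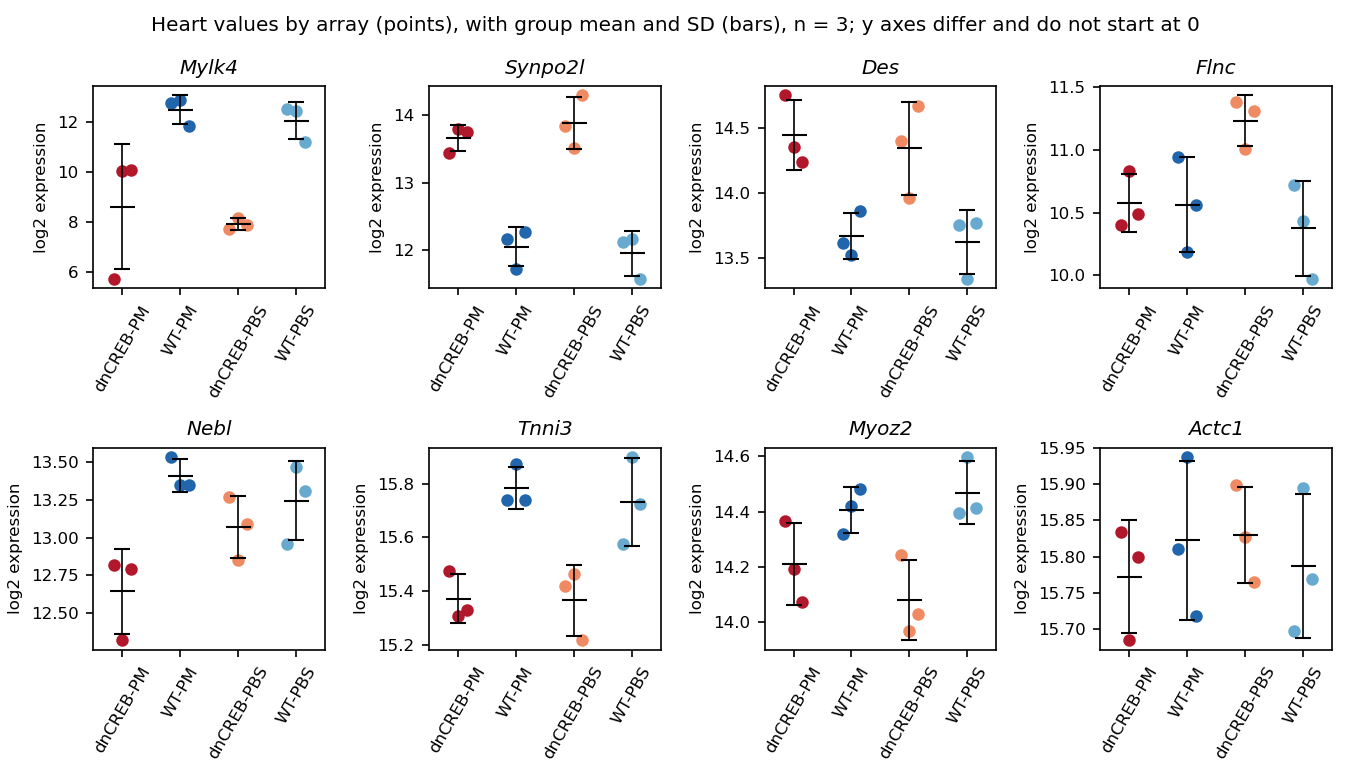
Log2 expression (y axis, a different range in each panel) of the 7 genes called under PM or PBS, and of Actc1 as a gene that was not called, added after its values were seen. Points are the 3 hearts of each group with mean and SD; dnCREB and WT points are apart in both conditions for Mylk4, Synpo2l, Des and Tnni3, while Actc1 stays between 15.68 and 15.94 in all 12 hearts.

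Pdlim5, the PDZ and LIM protein ENH that scaffolds kinases at the Z-disc, gave 2 answers within 1 gene. The probe set that represents it, 1429783_at, gave 15.70, 15.50 and 15.60 in dnCREB-PM and 15.65, 15.54 and 15.52 in WT-PM hearts, and 15.64, 15.71 and 15.56 in dnCREB-PBS and 15.68, 15.62 and 15.47 in WT-PBS hearts, a difference of 0.03 under PM and 0.05 under PBS. A further 5 of its 7 probe sets were higher in dnCREB hearts when the conditions were averaged, by 2.00 to 2.61 log2 units. Of these, 1422861_s_at gave 11.09, 10.42 and 11.03 in dnCREB-PM hearts, against 7.32, 8.50 and 8.69 in WT-PM hearts, and 11.07, 9.99 and 11.18 in dnCREB-PBS hearts, against 8.10, 8.21 and 8.37 in WT-PBS hearts. The difference was 2.68 ± 0.39 under PM (adjusted p = 0.0019) and 2.52 ± 0.39 under PBS (adjusted p = 0.0025), over all probe sets tested. With the class as a covariate it was 2.86 under PM (adjusted p = 0.022) and 2.79 under PBS (adjusted p = 0.088). 1427475_a_at differed by 2.62 and 2.60 and 1450786_x_at by 2.46 and 2.38, also called in both conditions. With the class, 1427475_a_at was called in neither (2.16 and 1.91, adjusted p = 0.0504 and 0.22). 1450786_x_at was then called under PM only (2.95 and 3.12, adjusted p = 0.019 and 0.061). Averaged with the class, 1427475_a_at, 1422862_at and 1422863_s_at were not called (adjusted p = 0.067, 0.0999 and 0.16). 1422861_s_at and 1450786_x_at were (adjusted p = 0.024 and 0.018). The remaining probe set, 1421413_a_at, differed by 0.22 and 0.35 without a call. Pdlim5 is known to be spliced into isoforms with and without LIM domains, but which exons each probe set covers is not given in the files.

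**Figure D3:**
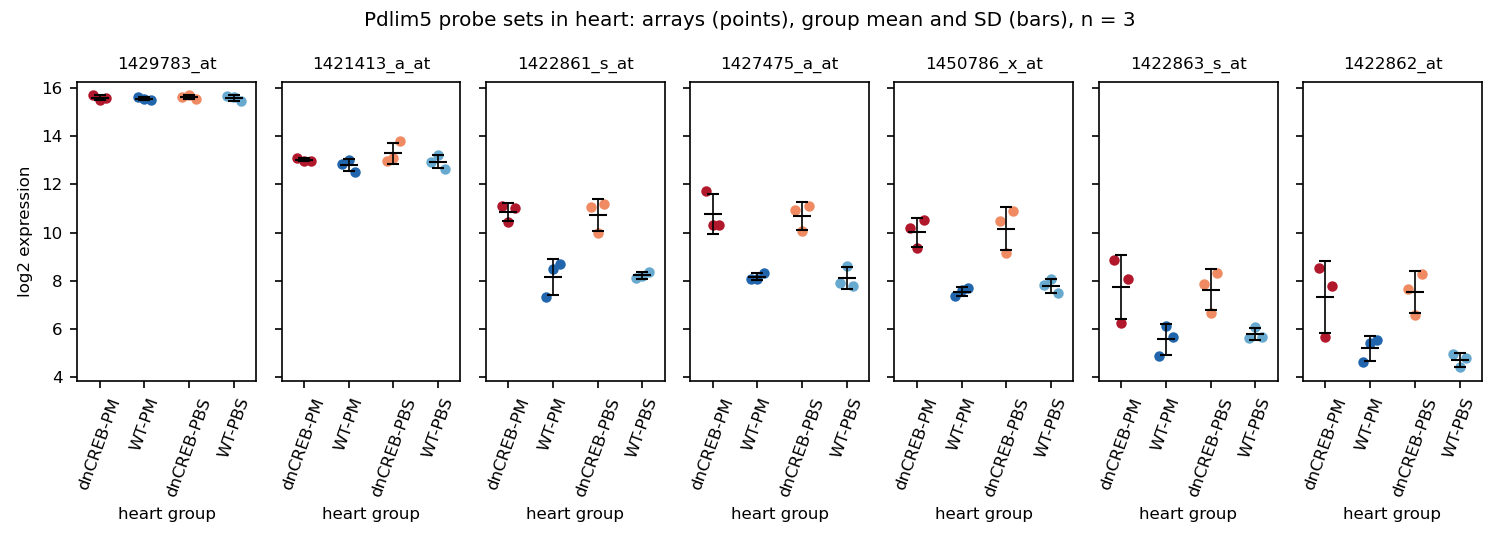
Log2 expression (y axis) of the 7 Pdlim5 probe sets in the 4 heart groups, with the 3 arrays as points and mean and SD as bars. The first panel is flat near 15.6 in all groups, while the last 5 panels are higher in the dnCREB than in the WT hearts.

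Other genes also held probe sets that differed from the one that represents them. These were singled out after their values were seen. Tpm1 probe set 1423721_at gave 10.77, 10.04 and 10.57 in dnCREB-PM and 9.51, 9.35 and 9.20 in WT-PM hearts, and 9.97, 10.28 and 10.61 in dnCREB-PBS and 8.61, 9.26 and 9.20 in WT-PBS hearts, 1.10 higher under PM (adjusted p = 0.012) and 1.26 under PBS (adjusted p = 0.0065). With the class as a covariate these were 1.21 and 1.43, without a call (adjusted p = 0.072 and 0.14). Tropomyosin 1 is spliced differently in striated muscle, smooth muscle and non-muscle cells, and the fibroblast markers given above moved in the same direction; their part was not tested. Ldb3 probe set 1416752_at was lower under PM at 13.77, 13.74 and 13.64 in dnCREB, against 14.11, 14.26 and 14.21 in WT hearts (-0.48, adjusted p = 0.014; -0.56 and 0.063 with the class). Tnnt2 probe set 1440424_at was lower on average by -1.76 (adjusted p = 0.025) and Ttn probe set 1446450_at by -0.99 (adjusted p = 0.011), which lay at 3.67 to 5.94, near the filter. With the class these were -0.37 and -0.23, without a call (adjusted p = 0.88 and 0.83). Over the 60 probe sets of the 30 genes above the filter, 14 were called under PM (23.3%) and 12 under PBS (20%), where 17.5% and 16.4% of all probe sets were called. Averaged, 22 were called (36.7%), where 32.5% of all were.

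Many of these genes lay near the top of the signal scale. Of the 30 genes, 20 had a heart mean above 14, a level passed by 1.36% of all genes, and 4 had one above 16, while the highest value on a heart array was 17.29 to 17.70. Among the 24 probe sets of these genes with a mean of 14 or more, averaged differences ran from -0.40 to 0.75, with a median size of 0.12, and 6 were called, where the median size over all 347 probe sets at that level was 0.23 and 47.6% were called. Among 15 with a mean of 12 to 14, the median size was 0.37 and 6 were called, against 0.31 and 48% of all 1191. Among 21 with a mean under 12, differences ran from -4.02 to 2.61, with a median size of 0.99, and 10 were called, against 0.27 and 30.9% of all 15155. Probe sets of 1 gene share their RNA, and levels of different probe sets do not rank transcripts. Whether signals near the top of the scale understate differences was not tested.

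**Figure D4:**
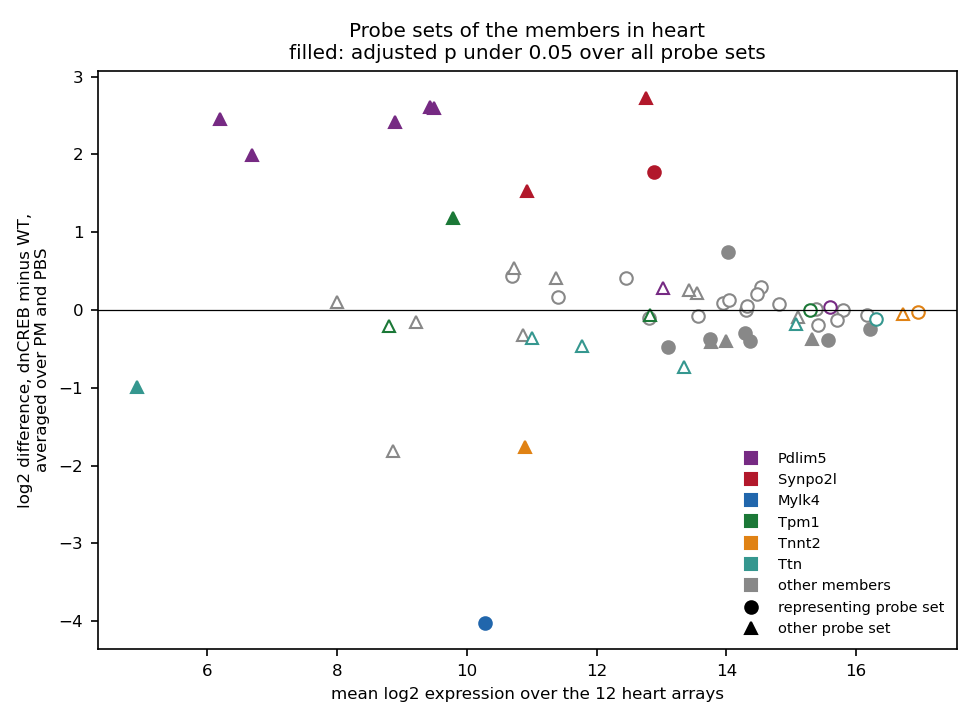
Each point is 1 of 60 probe sets of the 30 genes: mean log2 expression over the 12 heart arrays (x axis) against the log2 difference between dnCREB and WT averaged over PM and PBS (y axis). Circles represent the gene, triangles are its other probe sets, filled points passed the test; beyond 14 on the x axis the points narrow to between -0.40 and 0.75.

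In the desmin, filamin and costamere group, Des was higher in both conditions. Desmin is the intermediate filament of muscle, also made by smooth muscle. It gave 14.75, 14.35 and 14.24 in dnCREB-PM hearts, against 13.62, 13.53 and 13.86 in WT-PM hearts, and 14.40, 13.96 and 14.67 in dnCREB-PBS hearts, against 13.76, 13.34 and 13.77 in WT-PBS hearts. All dnCREB hearts lay above all WT hearts. The difference was 0.78 ± 0.21 under PM (1.71-fold, adjusted p = 0.026) and 0.72 ± 0.21 under PBS (1.65-fold, adjusted p = 0.038), and averaged 0.75 (adjusted p = 0.0032). Under PM the call did not hold without WT-PM replicate 1 or 2 or dnCREB-PM replicate 1, at 0.62 to 0.75 (adjusted p of 0.0710 to 0.0863). Under PBS it did not hold without any 1 of 6 arrays (each WT-PBS array, WT-PM replicate 1, dnCREB-PBS replicate 1 or 3), at 0.56 to 0.79 (adjusted p of 0.0519 to 0.142). With the Xist class as a covariate the averaged difference was 0.49 (adjusted p = 0.38). Without the Xist-high array the difference was 0.88 under PM (adjusted p = 0.037). A second probe set, 1426732_at, was below the filter at 2.25 to 2.34 in every heart, and the mean of both gave 0.39 under PM (adjusted p = 0.035) and 0.35 under PBS, without a call (adjusted p = 0.060). Of 6 tested smooth muscle and pericyte markers, 1 was higher under PM and 2 under PBS, where 11.4% and 13.2% of all genes were. With the class as a covariate 0 of these markers were higher in each, and their part was not tested.

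Flnc, filamin C, which crosslinks actin at Z-discs and costameres, was higher under PBS. It gave 11.39, 11.01 and 11.32 in dnCREB-PBS hearts, against 10.72, 10.44 and 9.97 in WT-PBS hearts (0.86 ± 0.24, 1.81-fold, adjusted p = 0.030). Under PM it gave 10.40, 10.84 and 10.49 in dnCREB and 10.94, 10.19 and 10.56 in WT hearts, which overlapped (0.01, -0.51 to 0.53). The interaction was -0.85 (unadjusted p = 0.028, adjusted p = 0.98), so a difference between the conditions was not shown. The call under PBS did not hold without WT-PBS replicate 2 or 3 or dnCREB-PBS replicate 1 or 3, at 0.66 to 0.89 (adjusted p of 0.0656 to 0.105). With the Xist class as a covariate it was 0.73 (adjusted p = 0.45), and with the mean of its probe sets 0.90 (adjusted p = 0.060).

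Cryab, the small heat shock protein alpha-B crystallin that guards desmin, gave 15.89, 16.14 and 16.17 in dnCREB-PM and 16.21, 16.29 and 16.18 in WT-PM hearts, and 16.26, 16.27 and 16.10 in dnCREB-PBS and 16.34, 16.22 and 16.01 in WT-PBS hearts. The dnCREB hearts lay below the WT hearts under PM and overlapped them under PBS. Cryab was not called, at -0.16 under PM (-0.43 to 0.10) and 0.03 under PBS (-0.24 to 0.29). Xirp1, a Xin repeat protein of the intercalated disc, differed by 0.21 (-0.45 to 0.87) and 0.13 (-0.53 to 0.79), and Smpx, a small stretch-responsive muscle protein, by -0.07 (-0.29 to 0.14) and 0.10 (-0.12 to 0.31). Of the ubiquitin ligases, Trim63 (MuRF1), which marks sarcomere proteins for degradation, was lower on average by -0.40 ± 0.12 (1.32-fold, adjusted p = 0.022), a call lost without WT-PBS replicate 2 (-0.37, adjusted p = 0.052) or WT-PM replicate 3 (-0.35, adjusted p = 0.053), or with the Xist class as a covariate (-0.51, adjusted p = 0.26). Fbxo32 (atrogin-1), the other ligase of muscle wasting, differed by 0.50 under PM (-0.24 to 1.23) and 0.32 under PBS (-0.42 to 1.05).

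No sarcomere gene passed the test for PM in the left ventricle. Against PBS, 0 of 30 genes were called in dnCREB hearts and 0 in WT hearts by limma, where 0% and 0.01% of all genes were called. At an unadjusted p under 0.05 there were 3 in dnCREB hearts (Flnc, Nebl and Nexn) and 0 in WT hearts, where 4.92% and 1.47% of all genes passed. Differences ran from -0.66 to 0.69 in dnCREB and from -0.23 to 0.44 in WT hearts, with Mylk4 at the upper end in each. The interaction of genotype and PM was called for 0 of 30 genes (0% of all genes), with 2 at an unadjusted p under 0.05 (Flnc and Nebl), where 3.62% of all genes passed.

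Other genes of the sarcomere and its attachments, not among the 31, were tested alongside. Of 49 related genes tested (other myosins, tropomyosins, chaperones, LIM and ankyrin repeat proteins, costamere proteins), 12 were higher and 5 lower under PM, and 15 higher and 5 lower under PBS, with medians of 0.17 and 0.26, where 11.4% and 9.13% of all genes were higher and lower under PM, and 13.2% and 5.6% under PBS. The 6 with the smallest p under PBS were Fhl1, Ankrd1, Synm, Ankrd23, Parva and Unc45b. Fhl1, a LIM protein that binds titin, gave 14.36, 13.83 and 14.10 in dnCREB-PM and 12.61, 12.37 and 12.66 in WT-PM hearts, 1.55 higher under PM and 1.57 under PBS. Ankrd1, the ankyrin repeat protein CARP that shuttles between titin and nucleus, was higher by 0.94 and 1.01, and its relative Ankrd23 by 1.27 and 1.34. Synm, the desmin partner synemin, was higher by 3.02 and 3.18, and Parva, alpha-parvin of focal adhesions, by 0.65 and 0.96. Unc45b, a chaperone of myosin, was lower by -1.14 and -1.07. Given the class as a covariate, 6 of the 49 were higher and 2 lower under PM, and 2 higher and 2 lower under PBS. Fhl1, Ankrd1 and Unc45b kept their calls in both conditions, Synm and Ankrd23 under PM, and Parva in neither. Myh6, the main myosin heavy chain of the adult mouse ventricle, was added after its values were seen and differed by -0.15 under PM and -0.16 under PBS without a call.

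Of 21 tested transcription factors and coregulators of muscle genes, 0 were higher and 2 lower under PM, and 3 higher and 3 lower under PBS. Of all genes, 11.4% were higher and 9.13% lower under PM, and 13.2% and 5.6% under PBS. The 6 with the smallest p under PBS were the regulators called there. Tbx20 was higher by 0.94, the CREB coactivator Crtc3 by 0.36 and the CREB relative Crem by 1.55. Hdac5, a repressor of MEF2, was lower by -0.55, Hand2 by -1.07 and the coactivator Ppargc1a by -2.86. Given the class as a covariate, 0 of 21 were higher and 1 lower under PM, and 0 were called under PBS. Srf, which binds the CArG box, differed by 0.78 under PM and 0.80 under PBS (adjusted p = 0.11 and 0.10) and was called when averaged (0.79, adjusted p = 0.019), but not with the class as a covariate (-0.17, adjusted p = 0.82), while Mef2c differed by 0.36 and 0.34 (adjusted p = 0.31 and 0.33). Both were chosen after their values were seen, for the motifs above.

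In lung, most sarcomere genes also passed the filter. Of 30 genes, 28 did so, as did 11600 of all 18193 genes, while Myl2 and Xirp1 did not. The filter of log2 4 lay below the median of every lung array (4.09 to 4.19). It lay above that of every heart array (3.25 to 3.37). Passing it in lung is thus weak evidence of expression there. Mean lung values of the 28 genes ran from 4.84 (Trim63) to 12.88 (Cryab). Lung values were normalized apart, so they are not set against heart levels. Cryab, which many tissues make, gave 12.95, 13.17 and 12.96 in dnCREB-PM and 12.63, 13.27 and 13.21 in WT-PM lungs, and 13.02, 12.83 and 12.83 in dnCREB-PBS and 12.43, 12.55 and 12.70 in WT-PBS lungs. Actc1 gave 12.06, 12.31 and 12.47 in dnCREB-PM and 12.12, 12.48 and 12.34 in WT-PM lungs, and 13.26, 12.41 and 12.20 in dnCREB-PBS and 11.60, 12.82 and 12.69 in WT-PBS lungs. Both were present in every lung. The dnCREB-PBS lungs lay above the WT-PBS lungs for Cryab (0.33, adjusted p = 0.87), and the other groups of each genotype pair overlapped.

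Nebl gave 11.93, 12.06 and 12.28 in dnCREB-PM and 12.13, 11.06 and 11.87 in WT-PM lungs, and 12.07, 12.41 and 12.11 in dnCREB-PBS and 12.38, 12.42 and 12.28 in WT-PBS lungs. Tnnt2 gave 11.51, 11.90 and 11.65 in dnCREB-PM and 11.79, 11.41 and 12.01 in WT-PM lungs, and 12.11, 10.72 and 10.62 in dnCREB-PBS and 11.02, 10.95 and 11.05 in WT-PBS lungs. All WT-PM lungs lay above all WT-PBS lungs for Tnnt2 (0.73, adjusted p = 0.19). At the other end, Xirp1 stayed at 2.63 to 3.59 in all lungs: 2.70, 2.77 and 2.91 in dnCREB-PM, 3.11, 2.94 and 2.65 in WT-PM, 3.59, 2.75 and 2.77 in dnCREB-PBS and 2.76, 2.75 and 2.63 in WT-PBS. Myl2 was at 2.35 to 2.46 except in dnCREB-PM replicate 1, at 4.97, and WT-PBS replicate 1, at 6.26. Its values were 4.97, 2.40 and 2.39 in dnCREB-PM, 2.36, 2.46 and 2.40 in WT-PM, 2.37, 2.36 and 2.38 in dnCREB-PBS and 6.26, 2.35 and 2.36 in WT-PBS lungs.

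Markers of 2 other striated muscles were also present in lung. Myl7, the atrial light chain, also made by the muscle sleeve of pulmonary veins, gave 10.61 to 13.39 in all 12 lungs and 2.34 to 2.44 in the 12 hearts. Fast skeletal muscle genes had a list median above log2 5 in 5 lungs (dnCREB-PM replicate 3, WT-PM replicates 1 and 2, dnCREB-PBS replicates 1 and 3), a limit set after the values were seen. The mean of this list of 15 was 3.07 to 7.58 in dnCREB-PM, 4.11 to 7.23 in WT-PM, 3.09 to 7.39 in dnCREB-PBS and 2.86 to 3.02 in WT-PBS lungs, where 13 of the 15 were under 4 in every array. In the hearts, 10 of the 15 were under 4 in every array. In those 5 lungs, 4 of the 30 sarcomere genes (13.3%) were above all other lungs, as were 0.495% of all 18193 genes. 1 of them, dnCREB-PBS replicate 1, also had the highest list means for heart muscle genes. Its mean was 9.27 for cardiomyocyte markers (other lungs 6.39 to 7.75) and 9.98 for atrial ones (7.59 to 8.65). For the 30 sarcomere genes it was 9.27 (7.33 to 8.42). The part of each muscle was not tested. Myl3, which slow skeletal muscle also uses, was at 9.35 to 10.25 in those 5 lungs and at 2.52 to 7.63 in the other 7, Actn2 at 7.35 to 9.07 and at 6.21 to 7.34, Ldb3 at 8.02 to 9.34 and at 6.94 to 7.75, and Mylk4 at 5.36 to 6.92 and at 3.46 to 5.21. Of the slow skeletal muscle markers, Tnnt1 (3.85 to 4.64 and 3.64 to 4.56) and Myh7 (7.84 to 8.90 and 7.88 to 9.21) overlapped. Tnni1 was above the other lungs but under 4 (2.01 to 2.99 and 1.94 to 2.00).

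**Figure D5:**
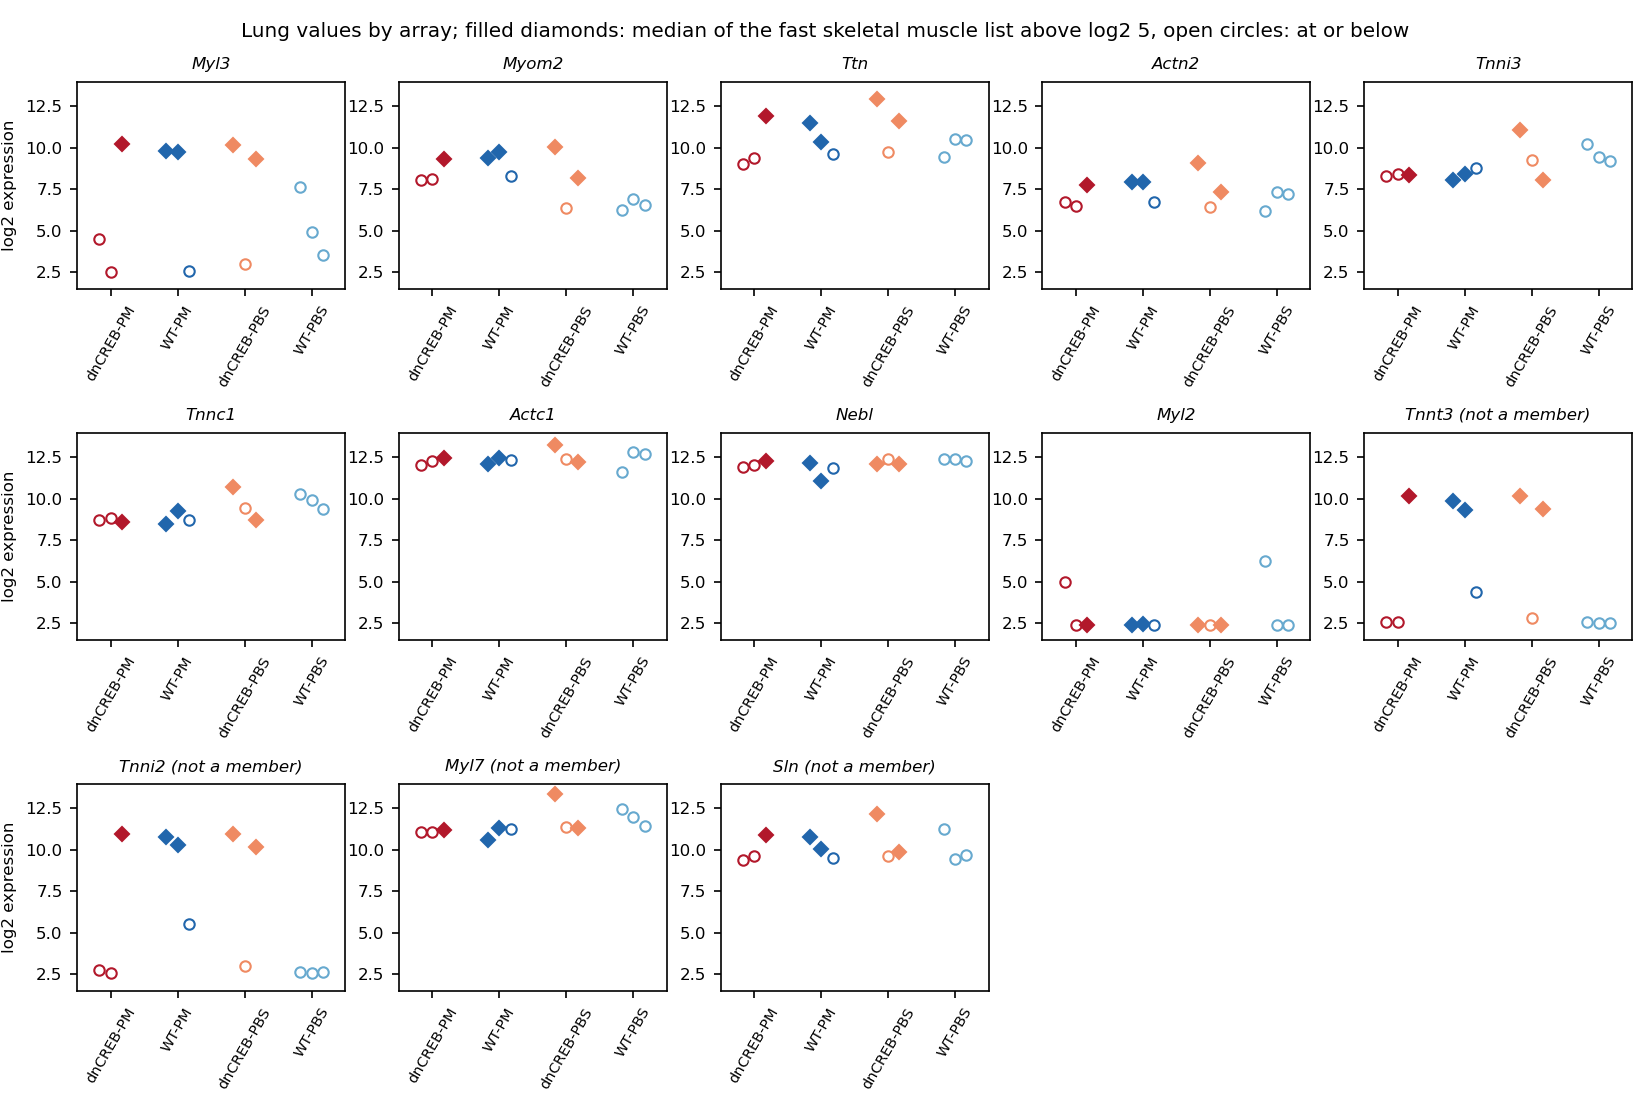
Log2 expression (y axis) in the 12 lungs by group for 9 sarcomere genes and for the fast skeletal muscle genes Tnnt3 and Tnni2 and the atrial genes Myl7 and Sln. Filled diamonds are the 5 lungs whose fast skeletal muscle list has a median above log2 5; Myl3 is at 9.35 to 10.25 in these and at 2.52 to 7.63 in the other 7, while Myl7 is high in all 12.

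No sarcomere gene was called in lung in any of the 6 comparisons by limma, where 0% to 2.39% of all genes were called. The share was 0% for dnCREB against WT under PM, 0.0259% under PBS and 0.00862% averaged, 0.00862% for PM against PBS in dnCREB and 2.39% in WT, and 0.00862% for the interaction. At an unadjusted p under 0.05 there were 0 of 28 genes for genotype under PM (3.97% of all genes), 1 under PBS (5.42%) and 0 averaged (4.85%). There were 1 for PM in dnCREB (9.72% of all genes), 5 for PM in WT (26.3%) and 1 for the interaction (5.22%). In WT lungs the smallest adjusted p was 0.078 for Myom2, at 9.39, 9.74 and 8.32 in WT-PM lungs, against 6.21, 6.89 and 6.52 in WT-PBS lungs. WT-PM replicates 1 and 3 were Xist-high and no WT-PBS lung was. Without the 5 lungs with fast skeletal muscle RNA, 1 array was left in WT-PM and 1 in dnCREB-PBS, too few for a count to be read.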

How the data were processed

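RNA of 12 left ventricles and 12 lungs was measured on Affymetrix mouse arrays. The deposited log2 values per probe set were made by the authors with GCRMA, per the submitters' processing notes, with no version given. Their ranges differ between heart and lung, so each tissue was analysed alone. Of 45037 probe sets, 34945 had 1 gene symbol, 932 had several and 9160 had none in the platform annotation, which gave 18193 genes, and 9010 of them had several probe sets. No symbol needed updating (0). A gene was tested in a tissue if its log2 value exceeded 4 in at least 3 arrays.

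limma 3.58.1 (R 4.3.3) fitted the 4 group means over the 12 arrays of a tissue, with 6 comparisons, Benjamini-Hochberg adjustment over all genes tested in each, and a threshold of 0.05. Tables and figures used Python 3.11.15, pandas 2.3.3 and matplotlib 3.10.9. The fit was tested on simulated data. The number of arrays limits the precision. Xist class means an Xist value above log2 8.

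The members and gene lists were chosen with earlier results of these data known. Values in every array are given for genes called under PM or PBS, for the 4 uncalled ones with the highest heart level, and for the 4 highest and 2 lowest in lung, and up to 6 related genes and 6 regulators were named by the smallest p under PBS. Pdlim5, the other probe sets, the Myom2 arrays in lung, and Actc1 in the plot of heart arrays were added after their values were seen. Alternatives were other filters, probe set rules, normalizations, fits, a replicate block, the Xist class and leaving out each array. The Xist class was applied to the gene lists and other probe sets after their values were seen.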

Additional observations from a re-analysis of the deposited data

How the results depend on the processing

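The counts of sarcomere genes called in dnCREB against WT hearts (2 higher and 3 lower under PM, 3 and 2 under PBS, 2 and 7 averaged) moved by more than 1.5 times under these settings, and the causes were not tested. With no filter on low values, 1 was higher under PM and 1 under PBS. Counting any probe set, 4 were higher and 5 lower under PM, 5 higher under PBS and 4 higher averaged. There a gene could be called by any of its probe sets, and the adjustment ran over 16693 probe sets. With the mean of a gene's probe sets, 4 were lower under PBS. With arrays centred on their median over the genes tested, 5 were lower under PM and 5 under PBS, and the median of all genes was -0.10 under PM, -0.13 under PBS. Centred over all probe sets, an alternative chosen after seeing the data, 1 was lower under PBS, with a median of 0.14. Fitting only the groups compared, 1 was lower under PM and 1 under PBS, with 1168 genes called under PM instead of 2042. With the replicate block, 1 was lower under PBS. The log2 values themselves correlated at 0.979 to 0.998 between heart arrays and 0.951 to 0.996 between lung arrays. In another measure of correlation, not of the log2 values themselves, same-numbered arrays gave -0.30 to 0.31 in heart and -0.33 to 0.33 in lung. It was over 0.1 in 4 of 18 in each. Differently numbered arrays gave -0.32 to 0.36 and -0.48 to 0.48, so the numbers were not taken as pairs. With the Xist class, which rests on 1 array, 1 was higher and 0 lower in each comparison, and 942 genes under PM, 337 under PBS and 865 averaged were called instead of 2042, 1869 and 3578. Leaving out 1 array gave 1 to 2 higher and 1 to 3 lower under PM, 1 to 3 higher and 0 to 2 lower under PBS, and 2 to 4 higher and 3 to 7 lower averaged. In lung, array weights gave 1 lower for PM in dnCREB (Tcap, with 1772 genes called instead of 1), the Xist class gave 1 higher and 1 lower for PM in WT (Myom2 and Nebl), and leaving out 1 array gave 0 to 1 higher there. Of 952 values of single genes under alternatives, 851 kept their side of the threshold (38 of them, none called, with the other sign), 84 lost a call, 17 gained one and 0 that were called reversed.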
